A study of Mus musculus with 9 samples.

Results

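The circadian clock genes described here are *Clock*, *Npas2*, *Per1*, *Per2*, *Per3*, *Cry1*, *Cry2*, *Nr1d1*, *Nr1d2* and *Dbp*. They were chosen by name, and the 10 names matched 10 of 56748 genes of the count table. All 10 were among the 18510 genes that reached 0.5 CPM (reads on a gene scaled to a common library total) in at least 1 library and were tested. RNA was sequenced from epididymal adipose tissue of wild-type male C57BL/6J mice that received HFD for 8 weeks from the age of 8 weeks. Tissue was taken at the end of HFD feeding (Pre) or after a further 1 week (WL1) or 2 weeks (WL2) of SD, with 3 libraries per phase. Every group had thus been made obese by HFD, no lean group was analysed here, and WL1 and WL2 mice were older than Pre mice by the weeks on SD. The labels do not say whether the replicates are separate mice, so the p-values measure the spread between these libraries. The sources used here do not give the hour at which tissue was taken, so phase and hour of collection cannot be told apart.

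The circadian clock is a loop of transcription factors that runs in nearly every cell and is set by light, feeding and hormones. CLOCK or its paralog NPAS2 pairs with BMAL1 (gene *Arntl*) and switches on the *Per* and *Cry* genes through E-box motifs, and the PER and CRY proteins then shut that pair off. In a further loop REV-ERB alpha and beta (*Nr1d1* and *Nr1d2*) repress *Arntl*, *Npas2*, *Clock* and *Cry1*. DBP and its relatives TEF and HLF carry the rhythm to output genes through D-box motifs, and in adipose tissue these outputs include genes of lipid storage and lipid release.

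Sequences upstream of the starts of 4 clock genes are given because these genes differ in the clock motifs they hold and in how their RNA varied among libraries. Each run is the 250 bases before a transcript start in RefSeq (GRCm38.p6), written 5′ to 3′ on the strand of the gene. Both strands were searched, and capitals mark the motifs found: CACGTG and CACGTT (E-boxes), TTATGTAA (D-box), AGGTCA (the core of REV-ERB sites) and TGACGTCA (cAMP response element).
Nr1d2, chr14:18239107-18239356, minus strand: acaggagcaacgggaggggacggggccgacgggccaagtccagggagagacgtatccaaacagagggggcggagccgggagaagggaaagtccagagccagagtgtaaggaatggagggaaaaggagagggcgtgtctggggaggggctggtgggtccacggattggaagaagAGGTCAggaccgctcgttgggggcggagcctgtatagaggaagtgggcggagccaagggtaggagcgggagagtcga
Per3, chr4:151044666-151044915, minus strand: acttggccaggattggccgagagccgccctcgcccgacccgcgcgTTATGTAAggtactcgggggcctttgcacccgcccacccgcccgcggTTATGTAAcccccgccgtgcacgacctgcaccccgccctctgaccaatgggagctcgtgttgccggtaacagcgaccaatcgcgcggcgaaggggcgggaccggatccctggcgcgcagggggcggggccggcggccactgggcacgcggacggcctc
Per1, chr11:69098699-69098948, plus strand: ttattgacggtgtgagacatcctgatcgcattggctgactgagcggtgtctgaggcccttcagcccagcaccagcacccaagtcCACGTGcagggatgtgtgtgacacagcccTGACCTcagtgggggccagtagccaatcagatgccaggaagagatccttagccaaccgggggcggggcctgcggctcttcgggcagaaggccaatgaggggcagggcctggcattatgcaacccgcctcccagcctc
Nr1d1, chr11:98775378-98775627, minus strand: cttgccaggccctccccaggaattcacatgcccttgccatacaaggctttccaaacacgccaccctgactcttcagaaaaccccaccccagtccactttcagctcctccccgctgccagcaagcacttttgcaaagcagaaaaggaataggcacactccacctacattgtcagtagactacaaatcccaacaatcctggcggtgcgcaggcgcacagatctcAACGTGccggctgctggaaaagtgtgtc
*Nr1d2* held AGGTCA with its first base 77 bases upstream of the start. *Per3* held the D-box TTATGTAA at 205 and again at 158 bases upstream. *Per1* held CACGTG at 166 and AGGTCA, on the other strand, at 137 bases upstream of the more distal of 2 annotated starts, and none of the motifs before the other. *Nr1d1* held CACGTT on the other strand at 28 bases upstream. The motifs did not overlap each other. Starts were found for 9 of the 10 genes, with 12 windows in all. No start was found for *Per2*. Of the 12 windows, 2 held CACGTG (*Per1*, *Cry1*), against 6.02% of 32851 windows of all genes, 3 held CACGTT (*Cry1*, *Cry2*, *Nr1d1*), against 3.85%, 1 held TTATGTAA, against 0.819%, and 3 held AGGTCA (*Clock*, *Nr1d2*, *Per1*), against 14.0%. TGACGTCA was found in 0 of the 12 and in 1.55% of all windows. The windows of *Npas2* and *Dbp* held none of these letters. A match describes the sequence and not binding, and sites outside the windows were not searched.

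Library totals ranged from 16434450 to 22729072 counts. Levels below are CPM after scaling with TMM factors, which discount genes of extreme ratio, unless FPKM is named. Summed marker levels are the exception, being scaled by library totals alone. The TMM factors were 0.933 to 0.954 at Pre, 0.993 to 1.04 at WL1 and 1.03 to 1.07 at WL2. Scaled by them, the sums would be higher at Pre and lower at WL2, so the direction of small differences between sums depends on the scaling. Reads on the clock genes ranged from 84 (*Npas2*, Pre replicate 1) to 2667 (*Per1*, WL2 replicate 3) per library. The summed level of 8 adipocyte markers, from *Adipoq* and *Plin1* to *Lep*, was 26051 to 32056 CPM at Pre, 19080 to 25410 at WL1 and 29234 to 31435 at WL2, and that of 4 epididymis markers was at most 0.183 CPM. Adipocyte markers did not move together between WL2 and Pre, with log2 fold changes of -2.03 for *Lep*, -0.67 for *Cidec* and 1.61 for *Cfd*. The sum was carried most by *Fabp4* (11101 CPM on average at Pre and 13511 at WL2, after TMM scaling). The summed level of 8 macrophage markers was 1268 to 2271 CPM at Pre, 2846 to 5320 at WL1 and 1599 to 2970 at WL2, and that of 4 fibroblast markers was 1342 to 1916, 1520 to 2408 and 1818 to 2286 CPM, of which *Dcn* and *Pdgfra* had log2 fold changes of 0.84 and 0.53 between WL2 and Pre and *Col1a1* and *Dpt* -0.87 and -0.38. Summed mesothelial markers were 28.2 to 285, 36.9 to 177 and 200 to 554 CPM, skeletal muscle markers 27.1 to 42.2, 5.02 to 12.5 and 6.80 to 22.9 CPM, and hepatocyte markers 6.82 to 76.8, 1.80 to 70.3 and 3.20 to 6.57 CPM. Of the neutrophil markers *S100a8* averaged 15.2, 2.77 and 0.893 CPM in the 3 phases, while *S100a9* and *Retnlg* averaged at most 0.514 CPM in any phase, without a fall from Pre to WL2. The mitochondrial share of counts was 3.15% to 3.57% at Pre, 1.86% to 2.03% at WL1 and 2.28% to 2.88% at WL2, without overlap. Pre replicate 2 stood apart by B and T cell markers, with 154 CPM for 7 genes against 3.90 to 15.5 CPM in the other 8 libraries. In tissue RNA, fewer cells of a type and less RNA per cell cannot be told apart, and the part of these shifts in the results below was not tested.

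Per length, *Nr1d1* and *Per1* were the most abundant of the clock genes in each phase and *Npas2* the least by the mean. At Pre, *Nr1d1* had 18.8 ± 7.24 FPKM, *Per1* 14.5 ± 2.08 and *Cry2* 11.8 ± 1.91 (SD, n = 3), and the libraries of neighbours in this order overlapped. A gap without overlap followed, down to *Clock* (5.29 ± 0.591), *Cry1* (5.26 ± 0.646), *Nr1d2* (4.37 ± 1.03), *Per2* (3.58 ± 0.755), *Dbp* (3.38 ± 1.40) and *Per3* (2.49 ± 1.15), which overlapped from each to the next. *Npas2* lay below them at 1.31 ± 0.324 FPKM. At WL2, *Nr1d2* (6.70 ± 0.307 FPKM) and *Per2* (6.59 ± 1.25 FPKM) ranked directly below *Cry2* and above *Clock* (5.05 ± 0.396 FPKM), whose libraries overlapped with those of *Per2*.

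**Figure D1:**
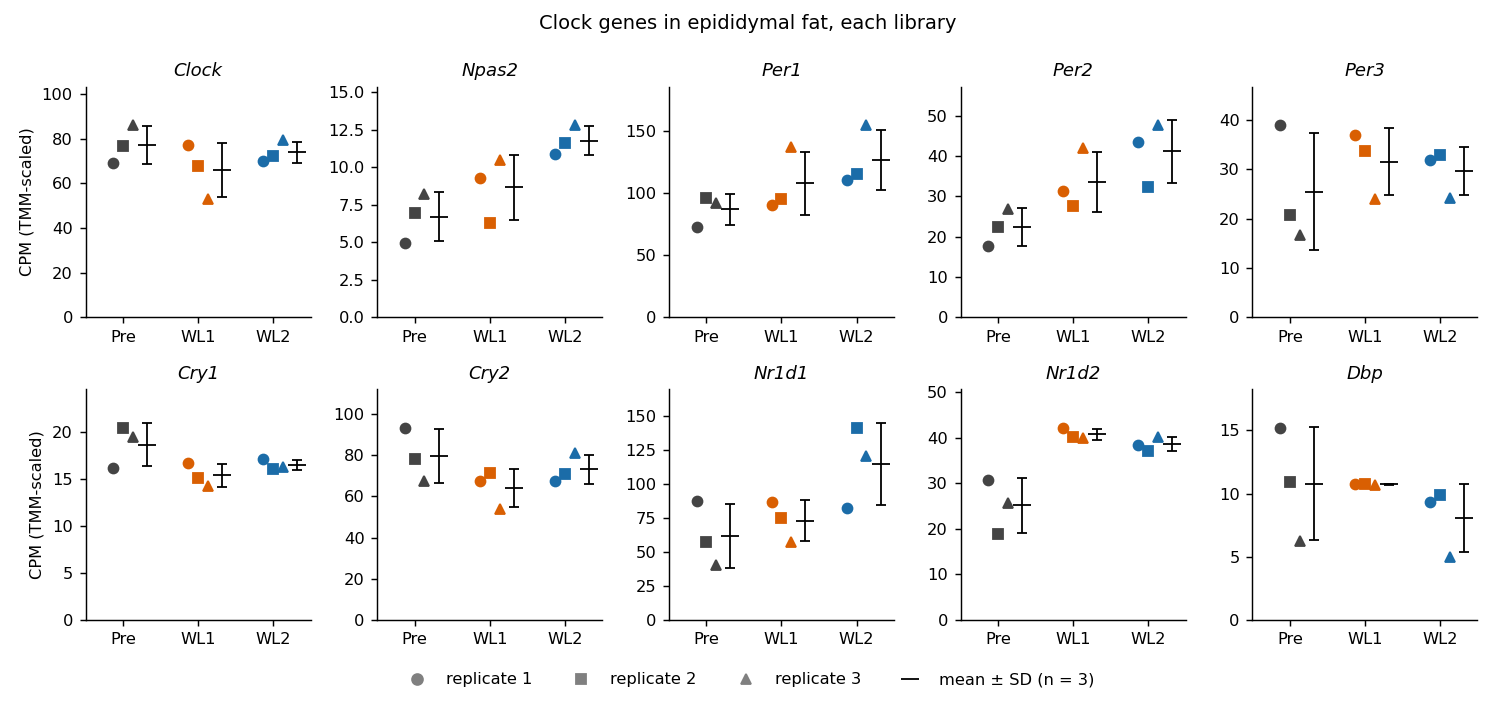
Level of each clock gene (CPM after TMM scaling, vertical axis from 0) in the 9 libraries by phase (Pre, WL1, WL2). Points are libraries with the shape giving the replicate number, and bars are the mean ± SD of 3 libraries. The 6 WL1 and WL2 libraries of Nr1d2 sit between 37.1 and 42.2 CPM, above the Pre libraries, and those of Clock, Cry1 and Cry2 overlap with Pre.

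The question was whether clock gene RNA differed between the phases of weight loss. *Nr1d2* and *Per2* were higher during SD feeding, *Nr1d2* by 1.62-fold at WL1 and 1.54-fold at WL2 and *Per2* by 1.84-fold at WL2. No clock gene passed downward, and none passed between WL1 and WL2. By edgeR's quasi-likelihood test, 1 of 10 passed the threshold (Benjamini-Hochberg adjusted p under 0.05 over all genes) upward at WL1 against Pre, where 2.60% of all genes tested did and 7.29% passed in either direction. For WL2 against Pre 2 of 10 passed upward, where 3.35% of all genes did and 10% (1853 genes) passed in either direction. Downward 0 of 10 passed in either comparison, against 4.69% and 6.66% of all genes. At WL2 against WL1 0 of 10 passed in edgeR and 0 in DESeq2, and 1 had an unadjusted p under 0.05, while 3.68% of all genes passed in either direction, 1.31% upward and 2.37% downward. An unadjusted p under 0.05 was reached by 2 of 10 clock genes at WL1 against Pre, beside 24.3% of all genes, by 5 of 10 at WL2 against Pre, beside 26.0%, and by that 1 of 10, *Nr1d1*, at WL2 against WL1, beside 21.4%. Without Pre replicate 2, the library with B and T cell markers, 1 clock gene passed at WL1 and 1 at WL2 against Pre. Both comparisons with Pre use the same Pre libraries. The median log2 fold change of the 10 genes was 0.28 at WL1 and 0.38 at WL2 against Pre, beside 0.021 and 0.0084 for all genes tested. In each of these comparisons 6 of the 10 were above 0 and 4 below (*Clock*, *Cry1*, *Cry2* and *Dbp*). Scaling by library totals alone moved the median of all genes up by 0.098 at WL1 and 0.15 at WL2 against Pre, and raised the share of calls that were higher from 35.7% to 60.9% and from 33.5% to 64.1%.

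*Nr1d2* (ENSMUSG00000021775, chromosome 14) encodes REV-ERB beta, a heme-binding repressor. Its level was 30.8, 18.9 and 25.8 CPM in Pre replicates 1 to 3, 42.2, 40.1 and 39.9 CPM at WL1 and 38.5, 37.1 and 40.3 CPM at WL2. The 6 libraries from SD feeding lay above the 3 Pre libraries and close to each other, with the spread concentrated at Pre. The log2 fold change was 0.70 at WL1 (edgeR adjusted p = 0.0264, SE 0.16) and 0.62 at WL2 (edgeR adjusted p = 0.0331, SE 0.16). Leaving out each library in turn gave log2 fold changes from 0.53 to 0.86 at WL1 and from 0.45 to 0.79 at WL2. The call at WL1 was lost without Pre replicate 3 or any WL1 library, and that at WL2 without Pre replicate 3, WL1 replicate 2 or any WL2 library. Both calls were also lost in limma on log2(FPKM + 0.1) and when the compared phases were fitted alone. *Nr1d1* (ENSMUSG00000020889, chromosome 11), which encodes REV-ERB alpha, had 87.3, 57.7 and 40.2 CPM at Pre, 86.7, 75.4 and 57.2 at WL1 and 82.2, 141 and 120 at WL2. The phases overlapped, since WL2 replicate 1 lay below Pre replicate 1. Its log2 fold change between WL2 and Pre, 0.90, was as large as that of *Per2*, with a wider error (SE 0.28, adjusted p = 0.0730 in edgeR, 95% interval from 0.27 to 1.52), and passed without Pre replicate 1 (1.23) or WL2 replicate 1, in DESeq2, with no filter on low counts and with library totals alone. In the authors' coordinates *Nr1d1* overlaps *Thra* on the other strand by 1075 bases, and the sources used here do not give the strand setting of the counting. *Thra* itself, the thyroid hormone receptor alpha gene, had a log2 fold change of 0.29 at WL2 against Pre (SE 0.15, adjusted p = 0.236 in edgeR). The FPKM of *Nr1d2* was 20.1%, 18.6% and 36.5% of that of *Nr1d1* at Pre, 27.7%, 30.3% and 39.7% at WL1 and 26.6%, 14.9% and 19.0% at WL2.

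*Per2* (ENSMUSG00000055866, chromosome 1), a repressor of the CLOCK and BMAL1 pair, had 17.6, 22.4 and 27.0 CPM at Pre, 31.4, 27.5 and 42.0 CPM at WL1 and 43.4, 32.4 and 47.7 CPM at WL2. Every library from SD feeding exceeded every Pre library, although WL1 replicate 2 did so by little, and WL1 and WL2 overlapped. The log2 fold change was 0.88 at WL2 (edgeR adjusted p = 0.0257, SE 0.21) and 0.59 at WL1 (edgeR adjusted p = 0.121, SE 0.21, 95% interval from 0.12 to 1.05). Without each library in turn the value at WL2 ranged from 0.74 to 1.04, and the call was lost without Pre replicates 1 or 2 or WL2 replicates 1 or 3, and in limma on log2(FPKM + 0.1). *Per1* (chromosome 11), which also responds within minutes to glucocorticoids and cAMP, had 72.6, 95.5 and 91.8 CPM at Pre, 90.4, 95.3 and 137 CPM at WL1 and 110, 115 and 154 CPM at WL2. The WL2 libraries lay above the Pre libraries, but the log2 fold change of 0.55 at WL2 did not pass (SE 0.19, adjusted p = 0.101 in edgeR). *Per3* (chromosome 4), which is dispensable for the rhythm in mice, had 39.0, 20.8 and 16.7 CPM at Pre, 37.0, 33.7 and 24.0 at WL1 and 32.0, 32.9 and 24.1 at WL2. Its phases overlapped, and its interval at WL2 against Pre, from -0.42 to 0.86 (log2 fold change 0.22), includes values on both sides of 0, and without Pre replicate 3 the value was -0.0086. *Per3* shares 41014 bases with *Camta1* on the same strand in the authors' coordinates.

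*Npas2* (ENSMUSG00000026077, chromosome 1), the paralog that can stand in for CLOCK, had 4.95, 6.94 and 8.21 CPM at Pre, 9.28, 6.24 and 10.5 at WL1 and 10.9, 11.6 and 12.8 at WL2. The WL2 libraries lay above all 6 others, while Pre and WL1 overlapped. WL2 exceeded Pre by a log2 fold change of 0.81 (SE 0.23, 95% interval from 0.29 to 1.32) and narrowly missed the threshold in edgeR (adjusted p = 0.0528), while it passed in DESeq2, with no filter on low counts, with upper quartile factors, with library totals alone and without Pre replicate 3 or WL1 replicate 2. *Clock* (ENSMUSG00000029238, chromosome 5), the histone acetyltransferase partner of BMAL1, had 69.0, 76.8 and 86.0 CPM at Pre, 77.0, 67.5 and 53.2 at WL1 and 69.8, 72.4 and 79.2 at WL2. The phases overlapped, and the log2 fold change between WL2 and Pre, -0.066, had a 95% interval from -0.38 to 0.25 and turned to 0.083 with library totals alone. The FPKM of *Npas2* was thus 20.6%, 25.9% and 27.3% of that of *Clock* at Pre, 34.5%, 26.5% and 56.3% at WL1 and 44.7%, 45.9% and 46.3% at WL2. The WL2 ratios lay within a narrow band above those of Pre, and those of WL1 spread on both sides of it.

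The cryptochromes, the strongest repressors of the loop, had small differences. *Cry1* (chromosome 10) had 16.2, 20.5 and 19.5 CPM at Pre, 16.8, 15.1 and 14.3 CPM at WL1 and 17.1, 16.1 and 16.3 CPM at WL2. *Cry2* (chromosome 2) had 93.4, 78.0 and 67.6 CPM at Pre, 67.6, 71.2 and 53.9 CPM at WL1 and 67.5, 70.9 and 81.0 CPM at WL2. In both genes the phases overlapped. Their log2 fold changes at WL1 against Pre were -0.28 for *Cry1* (95% interval from -0.56 to 0.0055) and -0.31 for *Cry2* (95% interval from -0.64 to 0.020). For WL2 against Pre they were -0.18 and -0.12, and that of *Cry2* turned to 0.030 with library totals alone. *Dbp* (ENSMUSG00000059824, chromosome 7), a bZIP output factor that CLOCK and BMAL1 drive directly, had 15.2, 10.9 and 6.23 CPM at Pre, 10.7 CPM in each WL1 library and 9.36, 9.91 and 4.98 CPM at WL2. WL1 libraries were nearly equal and lay above the WL2 libraries, and both overlapped with Pre. Its log2 fold change was -0.0035 at WL1 (95% interval from -0.71 to 0.70) and -0.41 at WL2 (95% interval from -1.12 to 0.30) against Pre, the widest intervals of the 10 genes. The value at WL1 was 0.33 without Pre replicate 1 and 0.099 with library totals alone. *Dbp* overlaps *Sphk2* on the other strand by 737 bases, and *Sphk2* itself had a log2 fold change of -0.34 between WL2 and Pre (adjusted p = 0.228 in edgeR).

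**Figure D2:**
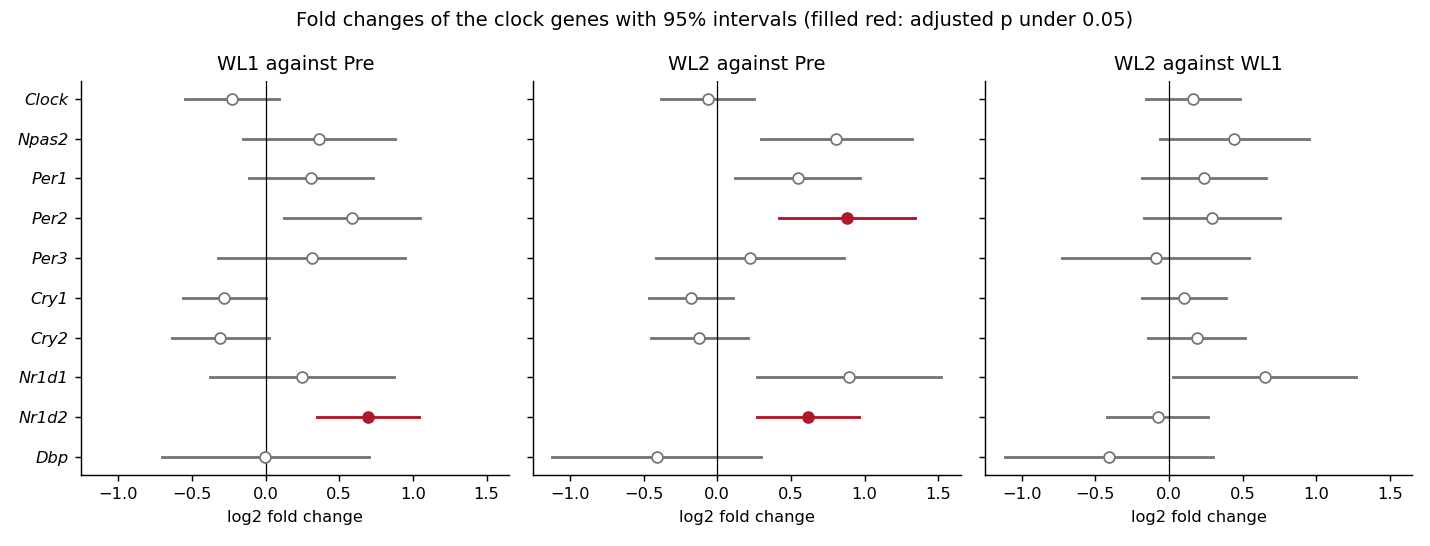
Log2 fold change of each clock gene (horizontal axis) with its 95% interval from the edgeR fit, for WL1 against Pre, WL2 against Pre and WL2 against WL1. Filled red points passed the adjusted threshold: Nr1d2 at WL1 (0.70) and WL2 (0.62) and Per2 at WL2 (0.88).

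Counted without a model, the libraries of the compared phases did not overlap in 2 of 10 clock genes at WL1 against Pre (*Nr1d2*, *Per2*), where 28.7% of all genes tested did not overlap. Between WL2 and Pre this held for 4 of 10 (*Npas2*, *Per1*, *Per2*, *Nr1d2*), against 30.9% of all genes. At WL2 against WL1 it held for 2 of 10 (*Npas2* higher, *Dbp* lower), against 30.4%. These shares lie near those of all genes.

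Libraries of the same phase also differed in clock genes. Pre replicate 1 had the highest *Dbp*, *Per3*, *Nr1d1*, *Nr1d2* and *Cry2* of its phase and the lowest *Npas2*, *Per1*, *Per2*, *Cry1* and *Clock*, and Pre replicate 3 had the lowest *Dbp*, *Per3*, *Nr1d1* and *Cry2* and the highest *Npas2*, *Per2* and *Clock*. The highest Pre library exceeded the lowest 2.44-fold in *Dbp*, 2.33-fold in *Per3* and 2.17-fold in *Nr1d1*. Those are ratios of single libraries, a different measure from the fold changes between phases, which compare fitted means of 3 libraries. In the genes that passed, the highest Pre library exceeded the lowest 1.63-fold (*Nr1d2*) and 1.53-fold (*Per2*). Their fold changes that passed were 1.62 and 1.54 for *Nr1d2* and 1.84 for *Per2*. In each of the 3 phases the library with the lowest *Per3* also had the lowest *Dbp* and the highest *Npas2* and *Per2*, although the *Dbp* levels at WL1 differed only 1.01-fold. *Tef*, a D-box factor chosen after its values were seen, had its lowest level in the same libraries, with 69.7 CPM in Pre replicate 3, 73.6 CPM in WL1 replicate 3 and 75.8 CPM in WL2 replicate 3. *Hlf*, the other relative of *Dbp*, did not follow, since it was lowest in replicate 2 at WL1 (3.63 CPM) and WL2 (6.06 CPM) and highest in WL2 replicate 3 (7.12 CPM). *Arntl*, by contrast, was highest in Pre replicate 3 (35.5 CPM) and WL2 replicate 3 (32.5 CPM), but at WL1 in replicate 1 (28.2 CPM). These libraries are all numbered 3, but across all genes the replicate numbers did not pair the libraries. The pattern was noticed in these values and is given without a test, and its relation to the hour of collection was not tested.

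**Figure D3:**
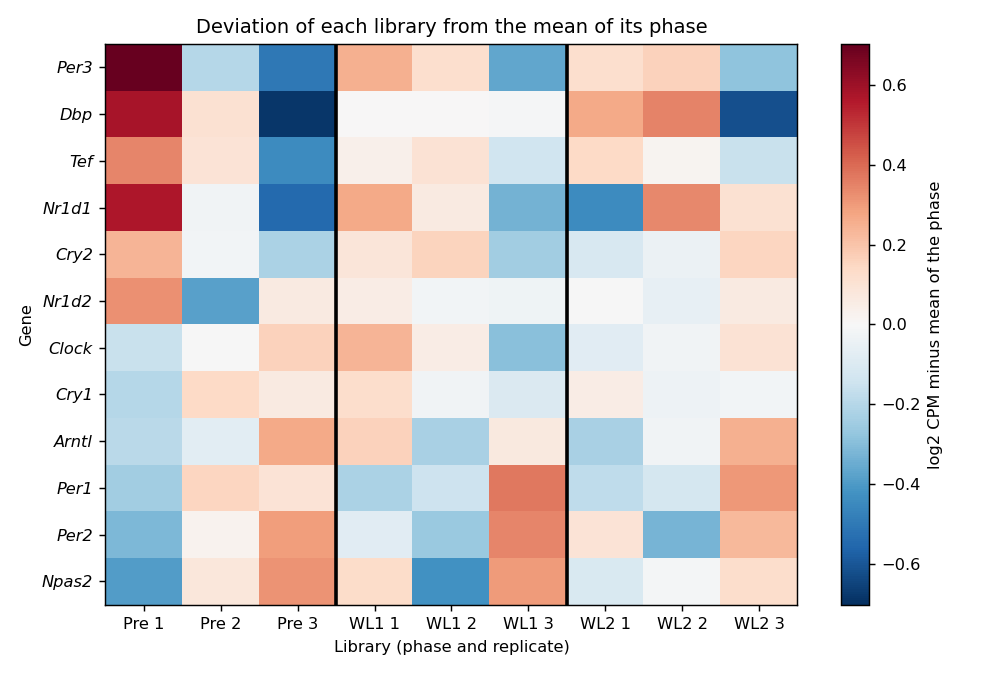
Deviation of log2 CPM from the mean of the phase (colour, red above and blue below) for the 10 clock genes, Arntl and Tef in the 9 libraries, with lines between Pre, WL1 and WL2. The replicate 3 library of each phase is at or below the mean for Per3, Dbp and Tef and above it for Per2 and Npas2.

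Genes that work with the clock genes came from lists of general knowledge. *Arntl*, the partner of CLOCK and NPAS2 and the main target of the REV-ERBs, had 25.9, 28.0 and 35.5 CPM at Pre, 28.2, 21.4 and 26.4 at WL1 and 23.3, 26.8 and 32.5 at WL2. Its phases overlapped, with log2 fold changes of -0.24 at WL1 (SE 0.17, adjusted p = 0.425) and -0.12 at WL2 against Pre (SE 0.17, adjusted p = 0.702), both from edgeR, and the value at WL2 turned to 0.034 with library totals alone. *Hlf*, a relative of *Dbp*, had 4.52 to 6.77 CPM at Pre, 3.63 to 4.72 CPM at WL1 and 6.06 to 7.12 CPM at WL2, and did not pass in any comparison.

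Of 18 genes for kinases, protein turnover and cofactors of the clock, 1 passed upward at WL1, 3 upward at WL2 against Pre and 0 between WL1 and WL2, where 3 had an unadjusted p under 0.05, and none passed downward in edgeR. Of all genes 2.60% passed upward at WL1 and 3.35% at WL2 against Pre. *Ncor1*, the corepressor that the REV-ERBs recruit, had 139, 113 and 139 CPM at Pre, 204, 197 and 161 CPM at WL1 and 193, 199 and 209 CPM at WL2. Every library from SD feeding lay above every Pre library. Its log2 fold change was 0.52 at WL1 (SE 0.13, adjusted p = 0.0353 in edgeR) and 0.62 at WL2 (SE 0.13, adjusted p = 0.0132 in edgeR). The call at WL1 was lost without Pre replicates 1 or 2, WL1 replicates 1 or 2, or WL2 replicates 2 or 3, and that at WL2 without WL2 replicates 2 or 3. *Ncor1* overlaps *Ttc19* on the other strand by 12026 bases. *Csnk1e*, a casein kinase that marks PER proteins for breakdown, had 47.3 to 54.6 CPM at Pre, 60.9 to 66.7 CPM at WL1 and 66.3 to 74.9 CPM at WL2. Its rise from Pre to WL2 was 0.43 on the log2 scale (edgeR adjusted p = 0.0255, SE 0.10), a call lost without Pre replicate 2 or WL2 replicates 2 or 3. *Sirt1*, a deacetylase that acts on clock proteins, rose by 0.46 (SE 0.12, adjusted p = 0.0439 in edgeR), and its call was kept in only 1 of the 9 fits that left out a library, the 1 without Pre replicate 2. Over 11 other settings, the calls at WL2 against Pre were kept in 11 for *Ncor1*, 8 for *Csnk1e* and 6 for *Sirt1*. The call of *Ncor1* at WL1 was kept in 7 of 11. These 3 genes were named because they passed upward, so a low level at Pre follows from that choice. Of the 18 genes, 11 had a log2 fold change above 0 at WL2 against Pre and 7 below.

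**Figure D4:**
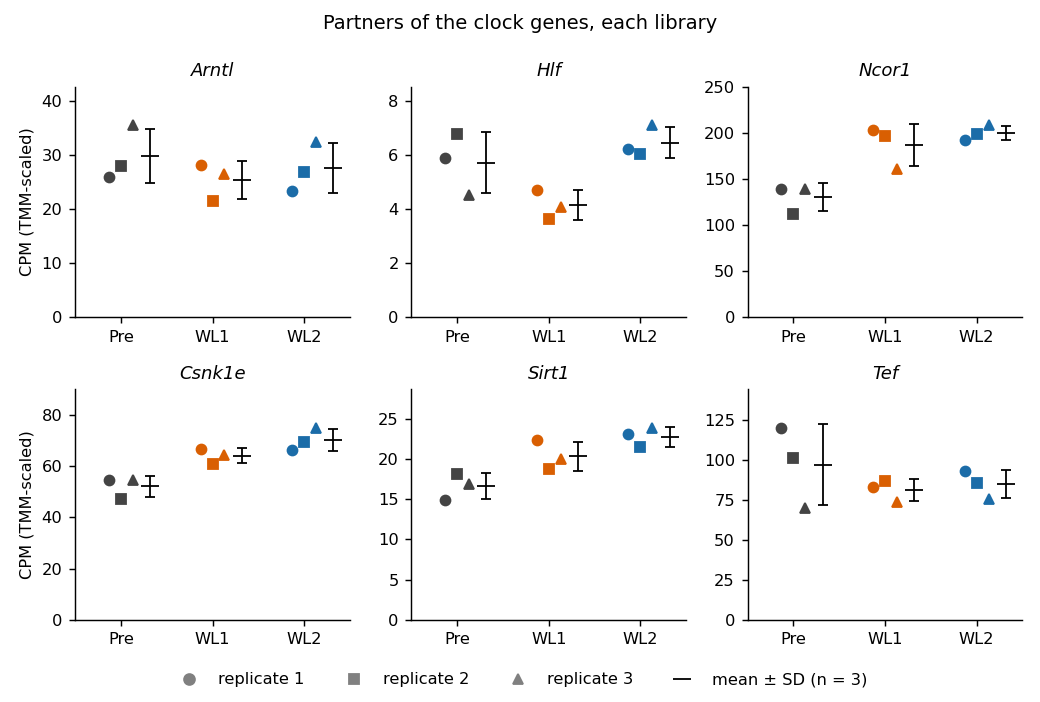
Level of 6 genes that work with the clock genes (CPM after TMM scaling, vertical axis from 0) in the 9 libraries by phase. Point shapes give the replicate number and bars the mean ± SD of 3 libraries. Ncor1 is at 113 to 139 CPM at Pre and at 161 to 209 CPM in the other phases, and Arntl overlaps between the phases.

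Of 10 genes that are rhythmic in many tissues, 1 passed, downward, at WL2 against Pre and at WL2 against WL1, where 6.66% and 2.37% of all genes did. This was *Ccnd1*, a cyclin of the cell cycle, with 38.5 to 55.1 CPM at Pre, 49.6 to 55.5 at WL1 and 22.6 to 33.8 at WL2 (log2 fold change -0.83 against Pre, adjusted p = 0.0157, and -0.99 against WL1, adjusted p = 0.0200, both from edgeR). The call against Pre was lost without WL2 replicates 2 or 3, and that against WL1 without these or any WL1 library. Since *Per1* and *Per2* also respond to glucocorticoids, genes of that response were set beside them. Of 11 tested, 1 passed upward and 1 downward at WL1 against Pre, 3 upward at WL2 against Pre and 1 upward at WL2 against WL1. The shares of all genes were 2.60% upward and 4.69% downward, 3.35% upward and 1.31% upward. Against Pre, 5 of the 11 had a log2 fold change above 0 and 6 below at WL1, and 8 above and 3 below at WL2. *Sgk1*, a kinase induced by glucocorticoids, had 72.5 to 101 CPM at Pre, 123 to 157 at WL1 and 167 to 204 at WL2, without overlap between the phases. Its log2 fold change was 0.73 at WL1 (SE 0.15, adjusted p = 0.0213 in edgeR) and 1.19 at WL2 against Pre (SE 0.16, adjusted p = 0.00109 in edgeR). The call at WL2 held without each library in turn, and that at WL1 was lost without Pre replicates 1 or 2 or WL1 replicates 2 or 3. *Klf9* (0.71, adjusted p = 0.0209) and *Sult1a1* (0.93, adjusted p = 0.00725) also rose at WL2 against Pre in edgeR. *Klf9* was lost without Pre replicates 1 or 2 or WL2 replicate 3. *Sult1a1* was also higher at WL2 than at WL1 (0.75, adjusted p = 0.0391 in edgeR), in 3 of the 9 fits without a library. *Lcn2* was lower at WL1 (-0.93, adjusted p = 0.0492 in edgeR), in 2 of the 9 such fits.

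Immediate early genes, which like *Per1* answer within minutes to stimuli and to handling of tissue, passed upward in 3 of 12 cases at WL1 against Pre, where 2.60% of all genes did. These were *Fos* (log2 fold change 1.50, adjusted p = 0.0309), *Atf3* (1.92, adjusted p = 0.0339) and *Dusp1* (0.93, adjusted p = 0.0106), all from edgeR. *Dusp1* passed in each of the 9 fits without a library. *Fos* was lost without Pre replicates 1 or 2 or WL1 replicates 1 or 3, and *Atf3* without Pre replicates 1 or 2 or WL1 replicates 2 or 3. None of the 12 passed in edgeR when WL2 was set against Pre (0 of 12), where 1 had an unadjusted p under 0.05 and 3.35% of all genes passed upward. *Dusp1* narrowly missed the threshold there (log2 fold change 0.59, adjusted p = 0.0502 in edgeR). It passed in 7 of 11 other settings and in 3 of the 9 fits without a library. From WL1 to WL2 the log2 fold change was below 0 for 11 of the 12 genes and above 0 for 1. In edgeR 0 of the 12 passed there, where 2.37% of all genes passed downward. An unadjusted p under 0.05 was reached by 5 of the 12, beside 21.4% of all genes. *Fos*, for example, ranged from 89.5 to 164 CPM at WL1 and from 27.9 to 61.2 CPM at WL2 (adjusted p = 0.0532 in edgeR). The difference was smaller for *Dusp1* (-0.35), whose lowest WL2 library, 198 CPM, exceeded its highest Pre library, 172 CPM. *Per1* was no lower at WL2 than at WL1 on average (127 ± 24.2 against 107 ± 25.5 CPM, SD, n = 3). Against Pre, the log2 fold change at WL2 was 0.55 for *Per1* and 0.59 for *Dusp1*. The median of the 12 immediate early genes there was 0.090, with 7 above 0 and 5 below. The part of either response in the levels of *Per1* and *Per2* was not tested.

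Among 13056 protein-coding genes with a mean of at least 1 CPM, the patterns most like that of *Npas2* over the 9 libraries, by Pearson's correlation of log2 CPM, were those of *Anxa9* (0.98), *Dcn* (0.97) and *Klf4* (0.96), and the most opposite were those of *Myl4* (-0.96), *Mgll* (-0.95) and *Creld1* (-0.94). For *Dbp* the most alike were *Pop7* (0.92), *Cenpw* (0.91) and *Srp54a* (0.90), and the most opposite *Hipk1* (-0.92), *Fam117b* (-0.91) and *Rab5a* (-0.91). These values share the phases and the libraries and are the extremes of many, so they describe the ranking alone. *Dcn* is among the 4 fibroblast markers, whose members differed in direction between WL2 and Pre as given above.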

How the data were processed

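RNA was sequenced from epididymal adipose tissue in 9 libraries. The authors deposited 1 table of read counts per gene with FPKM beside them. The submitters' processing notes name HISAT2, HISAT, TopHat2, CASAVA, GRCm38 and mm10, without roles or versions. The coordinates of the 10 clock genes in the table differ from those of the GRCm38 annotation used here, so only promoter coordinates are given with a build. The number of per-sample columns matching no sample was 0. Groups came from the sample labels.

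Genes below 0.5 CPM in every library were dropped. Counts were scaled by TMM and tested with edgeR 4.0.16 (quasi-likelihood, all 3 phases in 1 model, no covariate) in R 4.3.3, with Benjamini-Hochberg adjustment over 18510 genes and a threshold of 0.05. Log2 CPM used a prior count of 4. The test was checked on simulated counts, where it recovered 46 of 100 genes changed by a log2 fold change of 1 and 100 of 100 changed by 2, for WL2 against Pre among 18510 genes. The simulation gave all genes the same dispersion (spread between libraries beyond that of counting), so these rates need not hold for single clock genes. Alternatives were DESeq2 1.42.0, limma 3.58.1 on the deposited FPKM with pseudocounts of 1 and 0.1, other scalings and filters, a replicate block, the compared phases alone and leaving out each library. Intervals cover 95%.

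The clock genes and the lists were chosen with earlier results of these data known. Named beside the clock genes were *Arntl*, members of 5 related lists that passed in any comparison, and the genes most and least like *Dbp* and *Npas2*. In the list of further loop and output factors 1 gene is not reported here, so no count is given for that list. *Tef*, *Hlf*, single cell type markers and overlapping genes were named after their values were seen. Promoter windows were taken from RefSeq, without the transcribed bases.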

Additional observations from a re-analysis of the deposited data

How the results depend on the processing

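Clock gene calls were few and moved with the setting. At WL1 against Pre, 1 clock gene passed, against 2 with no filter on low counts and 0 in limma on log2(FPKM + 0.1), with the compared phases alone or with these and the replicate block. At WL2 against Pre, 2 passed, against 5 with no filter, 5 with library totals only, 4 in DESeq2, 0 in limma on log2(FPKM + 0.1), 1 with the compared phases alone and 1 with these and the replicate block. Leaving out each library gave 0 to 1, 0 to 2 and 0 to 0 clock genes in the 3 comparisons, and 512 to 1500, 743 to 1688 and 37 to 1351 of all genes. Over all genes, 1350, 1853 and 681 passed. At WL1 against Pre this was 2344 in DESeq2, 781 in limma on log2(FPKM + 0.1) and 844 with the replicate block. At WL2 against Pre it was 2119 with no filter, 2331 with library totals only, 2717 in DESeq2, 1462 in limma on log2(FPKM + 0.1), 1302 with the compared phases alone and 1057 with these and the replicate block. At WL1 against Pre, clock gene calls stayed at 1 in DESeq2 and with the replicate block. In the settings named for WL2 against Pre, calls over all genes rose or fell as those of the clock genes did. With the replicate block in all phases they did not, since clock gene calls rose to 3 and those over all genes fell to 1400. At WL2 against WL1 it was 1668 with no filter, 1935 in DESeq2, 231 in limma on log2(FPKM + 0.1), 330 with the replicate block, 1051 with the compared phases alone and 37 with these and the block. At WL2 against WL1 the share of calls that were higher was 35.5%, against 48.3% with upper quartile factors and 44.4% with library totals. The cause of these shifts was not tested.

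Some values below the threshold changed sign. *Dbp* at WL1 against Pre was 0.0014 with no filter, 0.099 with library totals, 0.031 and 0.060 in limma on FPKM with pseudocounts of 1 and 0.1, 0.089 with the replicate block, 0.055 with the block in the compared phases alone, and 0.33 and 0.0082 without Pre replicates 1 and 2. At WL2 against Pre, library totals gave 0.083 for *Clock*, 0.030 for *Cry2* and 0.034 for *Arntl*. Leaving out Pre replicate 3 gave 0.018 for *Clock*, -0.0086 for *Per3* and 0.030 for *Arntl*, leaving out Pre replicate 1 gave 0.0077 for *Cry2* and -0.14 for *Fos*, and leaving out WL2 replicate 1 gave -0.12 for *Atf3* (0.60 with all libraries) and -0.17 for *Fos*. *Per3* had 0.22 with all libraries. At WL2 against WL1, *Per3* was 0.038 without WL1 replicate 1 and 0.038 without WL2 replicate 3, and *Arntl* was -0.014 without WL2 replicate 3. Over all left-out libraries, the values ran from -0.28 to 0.33 for *Dbp* at WL1 against Pre. The WL2 against Pre ranges were -0.14 to 0.018 for *Clock*, -0.23 to 0.0077 for *Cry2*, -0.0086 to 0.66 for *Per3*, -0.25 to 0.030 for *Arntl*, -0.12 to 0.91 for *Atf3* and -0.17 to 0.47 for *Fos*. Between WL2 and WL1 they were -0.23 to 0.038 for *Per3* and -0.014 to 0.23 for *Arntl*.

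Same-numbered libraries did not deviate together, with r over 0.1 in 1 of 9 pairs (range -0.28 to 0.11) and 0 of 9 libraries closest to their own number. With the replicate block 1, 3 and 0 clock genes passed, *Per1* being added at WL2 against Pre (adjusted p = 0.0451 in edgeR). The block in the compared phases alone was chosen after seeing the data. With 84 to 258 reads per library, *Npas2* and *Dbp* were the most thinly counted clock genes.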
